A study of Mus musculus with 4 samples.

Results

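The collagens, laminins, thrombospondins, fibrillins, nidogens, lecticans and related extracellular matrix genes were examined in mouse forebrain of E10.5 embryos, measured by polyA RNA sequencing. Symbols were taken from the count table by family name, which matched 70 genes. A gene was kept when its mean over the 4 libraries reached 1 CPM (counts of the gene per 1000000 counts of the library), which left 55 of the 24982 genes in the table. Near the threshold, Col5a3 was kept at a mean of 2.25 CPM, and the highest of the 15 left out was Col14a1 at 0.996 CPM. All 55 passed the count filter of the test, which left 14235 genes.

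The 4 libraries formed 2 groups of 2. The conditional knockout (cKO) carried Sox1 cre+/- and Chd7 f/f, that is 2 floxed alleles of the chromatin remodeller gene Chd7 and a Cre recombinase named for Sox1, a gene of the early neural plate and tube. The control was Chd7 +/f, a heterozygous floxed genotype whose label names no Cre allele, so an effect of the Cre allele cannot be told apart from loss of Chd7. Tissue was micro-dissected whole forebrain, and no label says whether a library came from 1 embryo or a pool, so p-values measure only the spread between these libraries. Vessels, mesenchyme and skin around the neural tube also transcribe matrix genes, and cells outside the Sox1 lineage would keep Chd7. In such bulk tissue, fewer cells of a type and less RNA per cell cannot be told apart. Totals were 16581252 and 17096522 counts in the cKO libraries and 16609514 and 16916602 in the control libraries. Chd7 measured 136 and 130 CPM in cKO libraries, against 341 and 347 CPM in control libraries (log2 fold change −1.35, SE 0.05, edgeR adjusted p = 8.7e-05). Pax6, a transcription factor of forebrain neuroepithelium, was at 105 and 103 CPM in cKO libraries and 219 and 209 CPM in control libraries.

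As background, neuroepithelial cells of the forebrain rest on a basement membrane. It is a sheet of laminin trimers, each made of an alpha, a beta and a gamma chain, and of type IV collagen networks, joined by nidogens and by the heparan sulfate proteoglycans perlecan and agrin. Fibril-forming collagens and fibrillins belong mainly to the mesenchyme outside it. Lecticans, tenascins and thrombospondins are secreted glycoproteins that surround cells of the neural tissue and bind cell-surface receptors.

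In the cKO forebrain 4 of the 55 matrix genes were higher and 2 were lower once p-values from edgeR's quasi-likelihood test were adjusted over all 14235 genes by Benjamini-Hochberg (threshold 0.05). Thbs4, Col2a1, Col5a2 and Lamc1 rose, and Ncan and Lamc3 fell. The 6 calls were 10.9% of the members, against 3.7% of all genes tested and 3.89% of tested genes at 1 CPM or more. Among all genes 1.57% were called higher and 2.13% lower. An unadjusted p under 0.05 was reached by 21 of the 55 matrix genes (38.2%) and by 17.5% of all genes tested. The background genes were not matched to the level of the members, whose mean CPM had a median of 41.1. Smaller changes can be called at higher counts, so these shares are not adjusted for level. The median log2 fold change (cKO over control) of the 55 genes was 0.02, beside −0.00028 for all genes tested, and 28 values were above and 27 below 0. Both cKO libraries lay above both control libraries for 15 matrix genes (27.3%, against 22.0% of all genes tested) and below them for 15 (27.3%, against 26.5%). Together the 55 genes took 0.577% and 0.499% of counts in cKO libraries, and 0.520% and 0.541% in control libraries, so the groups overlapped in total matrix output.

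**Figure D1:**
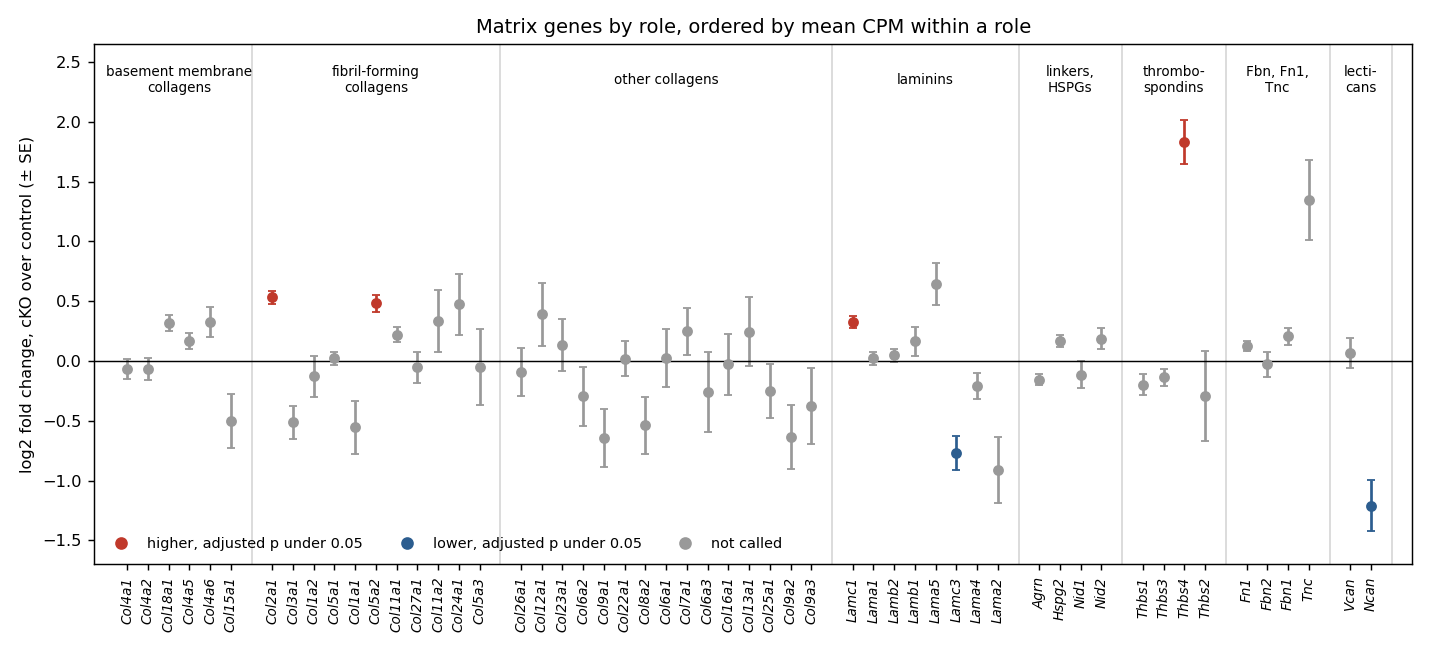
The log2 fold change of 54 of the 55 matrix genes, cKO over control, with its SE from the edgeR fit (2 libraries a group), on the vertical axis, with genes grouped by role and ordered by mean CPM. Red points (Thbs4, Col2a1, Col5a2, Lamc1) were called higher and blue points (Ncan, Lamc3) lower at an adjusted p under 0.05. Grey points were not called and run from −0.91 (Lama2) to 1.35 (Tnc).

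None of the 6 basement membrane collagen genes was called by edgeR, and DESeq2 and limma-voom each called 1, Col18a1. In edgeR 3 had an unadjusted p under 0.05 (50%, against 17.5% of all genes tested). Per length, Col4a1 averaged 69.5 CPM per kb of exon and Col4a2 44.0 CPM per kb; these genes encode the alpha1 and alpha2 chains, which assemble into the main type IV collagen trimer. Their start sites lie 21 bases apart on opposite strands of chromosome 8 (GRCm38), and their promoter windows overlap. The windows are shown because the pair kept a nearly fixed ratio of counts in every library. The highest ratio over the lowest was 1.02 for this pair and 1.24 for Col4a5 and Col4a6. In the other member pairs read it ran from 1.26 (Col1a1 and Col3a1) to 1.99 (Lama1 and Lama5). Pairs with fewer counts vary more by counting error alone. The intervals for Col4a5 and Col4a6, given below, overlapped among all 4 libraries, and none was computed for the other pairs. A fixed ratio is therefore not shown to be particular to Col4a1 and Col4a2. Any part of the shared stretch in the ratio was not tested. Each window runs from 250 bases before to 50 after the start (RefSeq, GRCm38.p6), written 5′ to 3′ on its own strand. The 78 bases that both windows cover are in capitals. Col4a1 is at chr8:11312777-11313076 on the minus strand and Col4a2 at chr8:11312555-11312854 on the plus strand.
Col4a1: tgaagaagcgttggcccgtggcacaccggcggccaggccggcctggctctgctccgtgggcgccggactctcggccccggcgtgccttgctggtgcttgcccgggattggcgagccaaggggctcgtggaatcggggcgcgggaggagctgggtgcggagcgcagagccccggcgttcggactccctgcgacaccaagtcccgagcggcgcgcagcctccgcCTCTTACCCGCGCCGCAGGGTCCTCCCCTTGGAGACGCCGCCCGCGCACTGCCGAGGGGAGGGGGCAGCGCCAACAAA
Col4a2: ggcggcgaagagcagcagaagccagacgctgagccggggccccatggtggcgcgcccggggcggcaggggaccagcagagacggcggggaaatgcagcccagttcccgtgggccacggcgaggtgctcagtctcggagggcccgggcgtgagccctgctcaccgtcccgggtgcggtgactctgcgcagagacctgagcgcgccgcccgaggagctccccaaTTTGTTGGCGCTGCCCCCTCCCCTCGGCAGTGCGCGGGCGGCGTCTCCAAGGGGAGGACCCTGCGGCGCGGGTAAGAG
The shared stretch reads as reverse complements in the 2 lines. G and C made up 74.0% of the Col4a1 window and 73.7% of the Col4a2 window.

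Windows were found for 39 of the 55 members, 44 windows in all. The called genes Col2a1, Col5a2, Lamc1 and Lamc3 were among the members without a window. The GC box letters GGGCGG, read on either strand, occurred in 33 of these 44 windows (75.0%) and in 35.7% of all 32851 mouse promoter windows of the same length. The CCAAT letters, on either strand, occurred in 36.4% of member windows and 37.4% of all windows, and TATAAA in 15.9% and 13.6%. Median GC content was 60.7% in member windows and 52.7% in all windows. The windows of Col4a1 and Col4a2 both held the GC box and CCAAT letters, and neither held TATAAA. The members were kept by their level, while the set of all windows was not limited to expressed genes. The differences in GC box share and GC content therefore cannot be read as particular to matrix genes. These matches describe the letters and identify no binding site.

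Col4a1 measured 493 and 403 CPM in cKO libraries and 460 and 484 CPM in control libraries, and Col4a2 measured 307 and 245 CPM in cKO libraries and 284 and 299 CPM in control libraries. For both genes cKO replicate 2 was the lowest and cKO replicate 1 the highest, so the groups overlapped, with log2 changes of −0.06 (SE 0.08, edgeR adjusted p = 0.76) and −0.07 (SE 0.09, edgeR adjusted p = 0.77). The ratio of Col4a1 to Col4a2 counts was 1.61 (95% interval 1.55 to 1.66) in cKO replicate 1 and 1.65 (1.58 to 1.71) in cKO replicate 2, against 1.62 (1.56 to 1.68) in each control library. These exact binomial intervals cover counting error only, and they overlap among all 4 libraries. The genes share 22 exon bases, and without strand information reads there cannot be assigned.

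The second head-to-head pair, Col4a5 and Col4a6 on chromosome X, encodes the alpha5 and alpha6 chains, and its start sites are 1309 bases apart. Col4a5 had 52.0 and 51.1 CPM in cKO libraries and 45.9 and 47.0 CPM in control libraries. Col4a6 was also higher in both cKO libraries, at 23.8 and 24.2 CPM, against 17.5 and 21.1 CPM in control libraries. Neither gene's groups overlapped, yet neither was called (log2 fold changes 0.16 and 0.33, edgeR adjusted p = 0.27 and 0.24). The ratio of Col4a5 to Col4a6 counts was 2.18 (1.94 to 2.47) and 2.11 (1.88 to 2.38) in cKO libraries, and 2.62 (2.29 to 3.01) and 2.23 (1.96 to 2.53) in control libraries. These intervals also overlap among all libraries.

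**Figure D2:**
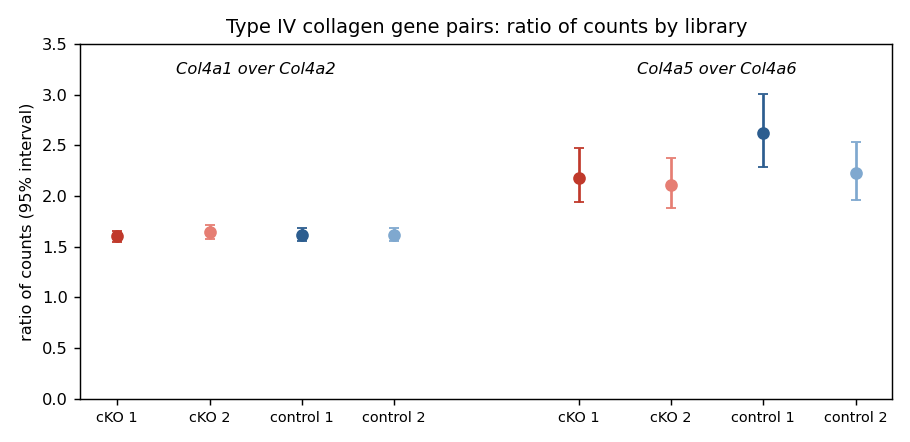
The ratio of counts within each type IV collagen gene pair (vertical axis, no unit) in each library, with exact binomial 95% intervals that cover counting error only. Col4a1 over Col4a2 lies between 1.61 and 1.65 in all 4 libraries, and Col4a5 over Col4a6 between 2.11 and 2.62. Within each pair the intervals overlap among all 4 libraries.

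Col18a1 encodes the core of a basement membrane proteoglycan whose C-terminal fragment is endostatin. It measured 306 and 316 CPM in cKO libraries, against 235 and 269 CPM in control libraries. Both cKO libraries were above both controls, and the log2 fold change of 0.32 (SE 0.07) missed the threshold, with an edgeR adjusted p of 0.051. In 6 of 11 alternative fits it was called higher, and leaving out control replicate 1 or control replicate 2 gave 0.22 or 0.42. Col15a1, of the same collagen subfamily, had 20.6 and 12.2 CPM in cKO libraries and 21.6 and 25.2 CPM in control libraries (log2 fold change −0.50, SE 0.22, edgeR adjusted p = 0.31).

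The 9 laminin genes included 1 that rose and 1 that fell, both of the gamma class (22.2% called, against 3.7% of all genes tested). Lamc1 (chromosome 1, 153218922 to 153332786, GRCm38), which encodes the gamma1 chain found in most laminin trimers, measured 188 and 187 CPM in cKO libraries, against 149 and 153 CPM in control libraries. Replicates differed by a few CPM, and the groups were well apart. The log2 fold change was 0.32 (SE 0.05, edgeR adjusted p = 0.014). Leaving out cKO replicate 1 gave 0.33 (adjusted p = 0.054) and leaving out cKO replicate 2 gave 0.32 (adjusted p = 0.083), and neither was then called. Lamc3 (chromosome 2, 31887291 to 31946539) encodes the gamma3 chain, which in people is linked to malformation of the occipital cortex. It fell to 23.3 and 17.96 CPM in cKO libraries, against 38.2 and 32.7 CPM in control libraries, with no overlap (log2 fold change −0.77, SE 0.14, edgeR adjusted p = 0.033). It was no longer called on leaving out cKO replicate 2 (−0.60, adjusted p = 0.124) or control replicate 1 (−0.65, adjusted p = 0.116). Exons of Lamc3 share 329 of 5871 bases with the antisense gene Gm13441, and reads there cannot be told apart.

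Per kb of exon, Lamc1 made up 86.1% and 88.9% of the summed Lamc1 and Lamc3 level in cKO libraries and 75.0% and 78.3% in control libraries. Lamc3 made up 13.9% and 11.1% in cKO libraries, against 25.0% and 21.7% in control libraries. The sum of these genes was 28.6 and 27.6 CPM per kb in cKO libraries, against 26.0 and 25.6 CPM per kb in control libraries. These shares are given as a description and were not tested.

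Lama1, whose alpha1 chain belongs to the first laminin of the embryo, was the main alpha-chain gene at 57.7% to 60.6% of alpha-chain RNA per kb in every library. It had 120 and 112 CPM in cKO libraries and 117 and 113 CPM in control libraries, with overlapping groups. Lamb2 and Lamb1 encode beta chains. Lamb2 had 89.98 and 93.3 CPM in cKO libraries and 90.7 and 88.4 CPM in control libraries, and Lamb1 had 85.6 and 69.5 CPM in cKO libraries and 62.6 and 76.8 CPM in control libraries, and neither was called. Lama4, the alpha chain of vessel walls, was at 21.7 and 19.1 CPM in cKO libraries and 23.9 and 23.8 CPM in control libraries (log2 fold change −0.21, edgeR adjusted p = 0.39). Lama2, the alpha chain of muscle and vessel basement membranes, was at 8.26 and 5.67 CPM in cKO libraries and 16.4 and 10.05 CPM in control libraries (log2 fold change −0.91, SE 0.28, edgeR adjusted p = 0.14). Its value was −0.52 on leaving out control replicate 1 and −1.22 on leaving out control replicate 2, the 1 alternative in which it was called (adjusted p = 0.020).

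Lama5, an alpha chain of epithelial laminins, was lowest in control replicate 1 and was not called. It had 54.9 and 51.1 CPM in cKO libraries, against 26.9 and 41.6 CPM in control libraries (log2 fold change 0.64, SE 0.18, edgeR adjusted p = 0.11). Leaving out control replicate 1 gave 0.36 (adjusted p = 0.12), and leaving out control replicate 2 gave 0.99 (adjusted p = 0.00080). In the authors' deposited table its adjusted p is 0.0096. Some surface ectoderm markers, named here after their values were seen, were low in the same library. Trp63, a regulator of stratified epithelium, was at 4.76 and 1.58 CPM in cKO libraries and 0 and 5.97 CPM in control libraries, and Cdh1, the epithelial cadherin, was at 13.4 and 13.5 CPM in cKO libraries and 2.17 and 14.0 CPM in control libraries. Tfap2c, the marker with the most counts, was highest in that library, at 91.8 and 90.5 CPM in cKO libraries and 97.3 and 67.8 CPM in control libraries. Over the 11 ectoderm markers the summed level was 158 and 141 CPM in cKO libraries and 112 and 123 CPM in control libraries. Over the 10 other than Tfap2c, a sum taken after the values were seen, it was 66.4 and 50.7 CPM in cKO libraries and 14.6 and 55.4 CPM in control libraries. Of the list, 0 of 8 tested were called by edgeR, and 1 had an unadjusted p under 0.05 (12.5%, against 17.5% of all genes tested). DESeq2 and limma-voom each called 1 higher, Epcam, and the keratin genes Krt5, Krt14 and Krt15 stayed at or near 0. The part of these cells in the Lama5 values was not tested.

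**Figure D3:**
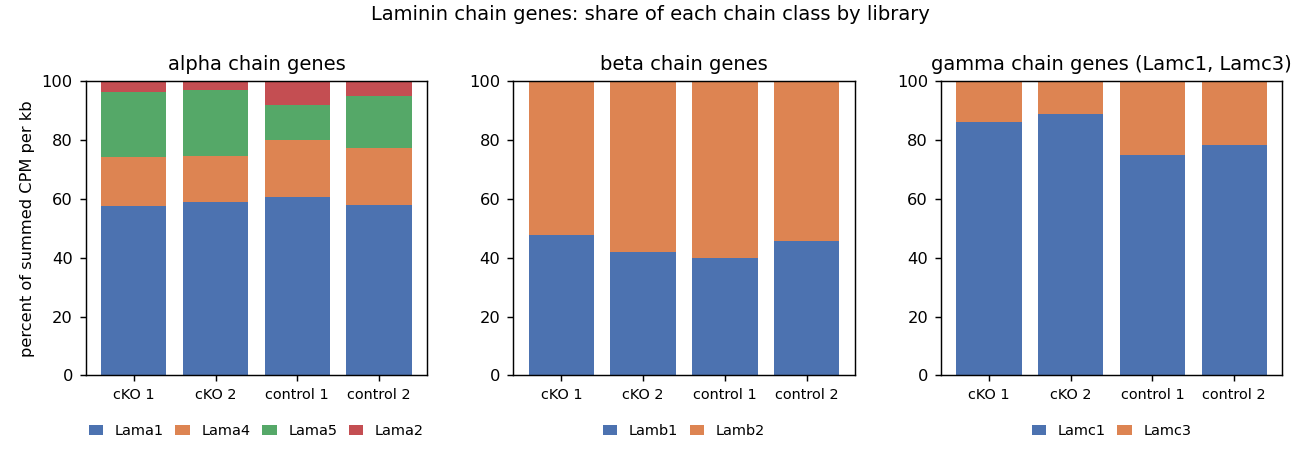
Share of the summed level of each set of laminin chain genes taken by each gene, as percent of the summed CPM per kb of exon (vertical axis), in each of the 4 libraries, with Lamc1 and Lamc3 as the gamma chain genes. Lamc3 takes 13.9% and 11.1% of their sum in cKO libraries, against 25.0% and 21.7% in control libraries, while Lama1 takes 57.7% to 60.6% of the alpha class throughout.

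None of the 4 linker and heparan sulfate proteoglycan genes was called by edgeR, DESeq2 or limma-voom. In edgeR 2 had an unadjusted p under 0.05 (50%, against 17.5% of all genes tested). Agrn (agrin, known as an organiser of the nerve-muscle synapse) measured 318 and 303 CPM in cKO libraries, against 354 and 345 CPM in control libraries (log2 fold change −0.16, SE 0.04, edgeR adjusted p = 0.12). Hspg2 (perlecan) measured 248 and 240 CPM in cKO libraries, against 211 and 228 CPM in control libraries (0.17, SE 0.05, edgeR adjusted p = 0.16). For both genes the groups were apart, Agrn lower and Hspg2 higher in each cKO library. Nid1 and Nid2, the nidogens that bridge laminin and type IV collagen, overlapped between groups: Nid1 had 146 and 112 CPM in cKO libraries and 132 and 149 CPM in control libraries, and Nid2 had 94.3 and 80.6 CPM in cKO libraries and 73.3 and 81.6 CPM in control libraries.

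Of the 11 fibril-forming collagen genes, Col2a1 and Col5a2 rose and 0 fell in edgeR, DESeq2 and limma-voom alike. The share called by edgeR was 18.2%, against 3.7% of all genes tested. An unadjusted p under 0.05 in edgeR was reached by 5 (45.5%, against 17.5% of all genes tested). Col2a1 (chromosome 15, 97975602 to 98004695) encodes type II collagen, the main collagen of cartilage, which the early neuroepithelium and notochord also transcribe; per length it was the most abundant member, at 88.6 CPM per kb. It rose to 539 and 526 CPM in cKO libraries, against 352 and 391.5 CPM in control libraries, a 1.44-fold difference (log2 fold change 0.53, SE 0.06, edgeR adjusted p = 0.0045). The groups were well separated, and Col2a1 was called in all 11 alternative fits. Col5a2 (chromosome 1, 45374321 to 45503282), the alpha2 chain of type V collagen, rose to 123 and 110 CPM in cKO libraries, against 87.7 and 81.3 CPM in control libraries (log2 fold change 0.48, SE 0.07, edgeR adjusted p = 0.014, and 0.051 on leaving out cKO replicate 1). Its partner chain gene Col5a1 had 108 and 106 CPM in cKO libraries and 104 and 109 CPM in control libraries (0.02, SE 0.05, edgeR adjusted p = 0.89). The ratio of Col5a1 to Col5a2 counts was 0.874 and 0.962 in cKO libraries, and 1.18 and 1.34 in control libraries.

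Col11a1, whose chain joins type II and type V chains in mixed fibrils, had 104 and 95.1 CPM in cKO libraries, against 83.8 and 88.6 CPM in control libraries. Both cKO libraries were the higher ones, and Col11a1 was not called (0.22, SE 0.06, edgeR adjusted p = 0.12). The type IX collagen genes, whose product coats type II fibrils in cartilage, lay on the other side. Col9a1 had 15.8 and 9.07 CPM in cKO libraries and 17.6 and 21.6 CPM in control libraries, and Col9a2 had 3.799 and 2.92 CPM in cKO libraries and 6.02 and 4.55 CPM in control libraries. Neither was called (log2 fold changes −0.64 and −0.64, edgeR adjusted p = 0.23 and 0.28). Col9a3 had 1.81 and 2.22 CPM in cKO libraries (30 and 38 counts) and 2.53 and 2.78 CPM in control libraries (42 and 47 counts). It was not called either (log2 fold change −0.38, edgeR adjusted p = 0.61). All 3 type IX genes had both cKO libraries below both controls, an order that 26.5% of all genes tested had.

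The type I and III collagen genes, the main fibrils of connective tissue, differed between the cKO libraries. Col3a1 had 353 and 244 CPM in cKO libraries, against 432 and 427 CPM in control libraries. Col1a1 had 109 and 59.9 CPM in cKO libraries and 126 and 125 CPM in control libraries. Col1a2 had 189 and 122 CPM in cKO libraries and 161 and 182 CPM in control libraries. For all 3 genes cKO replicate 2 was the lowest library, the Col1a2 groups overlapped, and none was called (log2 fold changes −0.51, −0.55 and −0.13, edgeR adjusted p = 0.10, 0.26 and 0.76). With cKO replicate 1 left out, the fit gave −0.79 for Col3a1, −1.04 for Col1a1 and −0.47 for Col1a2, each called lower (edgeR adjusted p = 0.0014, 0.0015 and 0.045). Col15a1 and Col9a1 were also called in that fit, at −0.91 and −1.09. With cKO replicate 2 left out the values of the 3 genes were −0.28, −0.19 and 0.15, with none called.

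Markers of head mesenchyme and neural crest differed between replicates as well. Their summed level was 605 CPM in cKO replicate 1 and 361 CPM in cKO replicate 2, against 407 CPM in control replicate 1 and 597 CPM in control replicate 2. The groups overlapped, and none of the 19 markers was at 0 in all libraries. Of the 18 tested markers, 1 was lower (Foxd1, log2 fold change −0.86, SE 0.12, edgeR adjusted p = 0.013, and 0.064 on leaving out cKO replicate 2) and 0 higher, with a median of −0.19. An unadjusted p under 0.05 was reached by 3 (16.7%, against 17.5% of all genes tested), and DESeq2 called 2 lower (Foxd1 and Lum) and limma-voom 1 lower. The markers did not all follow their sum. Alx4 had 127 and 66.9 CPM in cKO libraries, and 49.4 and 105 CPM in control replicates 1 and 2. Lum had 40.8 and 28.5 CPM in cKO libraries, and 57.9 and 47.0 CPM in control replicates 1 and 2 (log2 fold change −0.59, edgeR adjusted p = 0.12). As percent of the control mean, control replicate 1 was at 81.0% for the summed markers, 100.4% for Col1a1 and 100.6% for Col3a1. It was at 93.9% for Col1a2, 92.3% for Col15a1 and 89.8% for Col9a1. Col2a1, Col11a1 and Col5a2 were at 94.7%, 97.25% and 103.8% in that library. The part of mesenchyme in the collagen values was not tested.

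**Figure D4:**
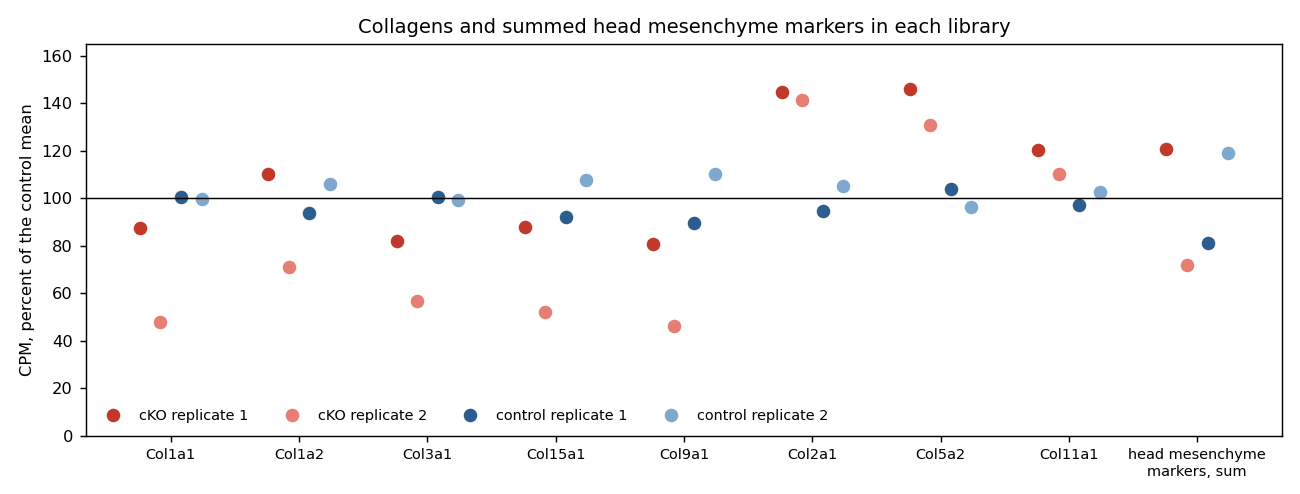
The level of 8 collagen genes and of the summed head mesenchyme and neural crest markers in each library, as percent of the control mean of CPM (vertical axis). Col2a1 is at 145% and 141% in cKO libraries, while Col1a1, Col3a1, Col15a1 and Col9a1 are at 80.7% to 88.0% in cKO replicate 1 and 46.3% to 56.9% in cKO replicate 2.

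Among the other 15 collagen genes, which include the network-forming, transmembrane and fibril-associated types, 0 were called by edgeR, DESeq2 or limma-voom. In edgeR 2 had an unadjusted p under 0.05 (13.3%, against 17.5% of all genes tested), and the smallest adjusted p was 0.23. Their median log2 fold change was −0.09. Both cKO libraries were below both controls for 5 of them (33.3%, against 26.5% of all genes tested) and above for 0 (against 22.0%), so the first share was near the background. The most abundant per length, Col26a1 (18.3 CPM per kb), had 60.0 and 38.2 CPM in cKO libraries and 46.1 and 59.3 CPM in control libraries, and Col12a1, a fibril-associated collagen, had 60.8 and 32.2 CPM in cKO libraries and 30.9 and 40.5 CPM in control libraries. Both genes overlapped between groups, with the highest level in cKO replicate 1. The type VI genes Col6a1, Col6a2 and Col6a3, which encode the 3 chains of microfibrils, had values of 0.03, −0.30 and −0.26, and the transmembrane collagens Col23a1, Col13a1 and Col25a1 had 0.13, 0.24 and −0.25. Col8a2, a network-forming collagen of endothelial basement membranes in the eye, had a value of −0.54 (SE 0.24, edgeR adjusted p = 0.30), with both cKO libraries below both controls.

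Of the 4 thrombospondin genes Thbs4 was called higher (25% called, against 3.7% of all genes tested), and the other 3 were not called. Thbs4 (chromosome 13, 92751590 to 92794818), a secreted pentameric thrombospondin known in the adult brain from astrocytes of the neurogenic subventricular zone, was at 12.1 and 11.9 CPM in cKO libraries, against 3.61 and 3.19 CPM in control libraries. The replicates of each group nearly coincided. The level was 3.56-fold higher (log2 fold change 1.83, SE 0.18, edgeR adjusted p = 0.0037), the largest change among the 55 genes, and it was called in all 11 alternative fits at 1.75 to 1.93. Thbs1, a trimeric thrombospondin and inhibitor of vessel growth, had 128 and 105 CPM in cKO libraries and 135 and 136 CPM in control libraries (−0.20, SE 0.09, edgeR adjusted p = 0.29). Thbs3, pentameric like Thbs4, had 51.9 and 54.9 CPM in cKO libraries and 58.6 and 60.0 CPM in control libraries (−0.14, SE 0.07, edgeR adjusted p = 0.36). Thbs2, a trimeric form, was at 2.83 and 1.99 CPM in cKO libraries and 3.79 and 2.19 CPM in control libraries. The thrombospondin genes other than Thbs4 all had values below 0, with overlap between the groups only for Thbs2. Both cKO libraries were below both controls for 2 of the 4 genes (50%, against 26.5% of all genes tested), and neither of these was called. Per length, Thbs4 averaged 2.41 CPM per kb over the 4 libraries, Thbs3 17.7 and Thbs1 21.5 CPM per kb.

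Fn1 (fibronectin), a glycoprotein that links collagens to integrins, averaged 58.1 CPM per kb. It measured 513 and 510 CPM in cKO libraries, against 469 and 478 CPM in control libraries. Each cKO library was above each control, and Fn1 was not called (0.13, SE 0.04, edgeR adjusted p = 0.16). The fibrillin genes, which encode microfibril proteins, also missed the threshold. Fbn1 had 80.0 and 71.3 CPM in cKO libraries and 64.0 and 68.5 CPM in control libraries, and Fbn2 had 217 and 178 CPM in cKO libraries and 185 and 222 CPM in control libraries. Exons of Fbn1 share 2442 of 12004 bases with the opposite-strand gene Gm9913. Tnc (tenascin-C), a glycoprotein of radial glia and stem cell niches, had 9.83 and 7.55 CPM in cKO libraries, against 4.64 and 2.25 CPM in control libraries. Both cKO libraries were above both controls, by 2.55-fold (1.35 on the log2 scale, SE 0.33), and the edgeR adjusted p was 0.079. Leaving out control replicate 1 gave 1.96 (adjusted p = 0.019) and leaving out control replicate 2 gave 0.92 (adjusted p = 0.10), and the authors' deposited table gives an adjusted p of 0.019.

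Of the lectican genes, Ncan fell and Vcan was not called. Ncan (chromosome 8, 70093085 to 70120873) encodes neurocan, a chondroitin sulfate proteoglycan of nervous tissue. It was at 21.6 and 17.4 CPM in cKO libraries, against 55.9 and 35.1 CPM in control libraries. The groups did not overlap although the controls were far apart, and the level was 2.31-fold lower (log2 fold change −1.21, SE 0.21, edgeR adjusted p = 0.029). Leaving out control replicate 1 gave −0.83 and leaving out control replicate 2 gave −1.51, both called. Ncan was not called on leaving out cKO replicate 2 (−1.07, adjusted p = 0.13) or by limma-voom (adjusted p = 0.051). Vcan (versican), the lectican of embryonic mesenchyme and neural crest paths, had 282 and 206 CPM in cKO libraries and 247 and 224 CPM in control libraries (0.06, SE 0.13, edgeR adjusted p = 0.85). Bcan (brevican), a lectican of mature brain, was among the 15 genes left out, with 10 and 12 counts in cKO libraries and 7 and 7 counts in control libraries.

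**Figure D5:**
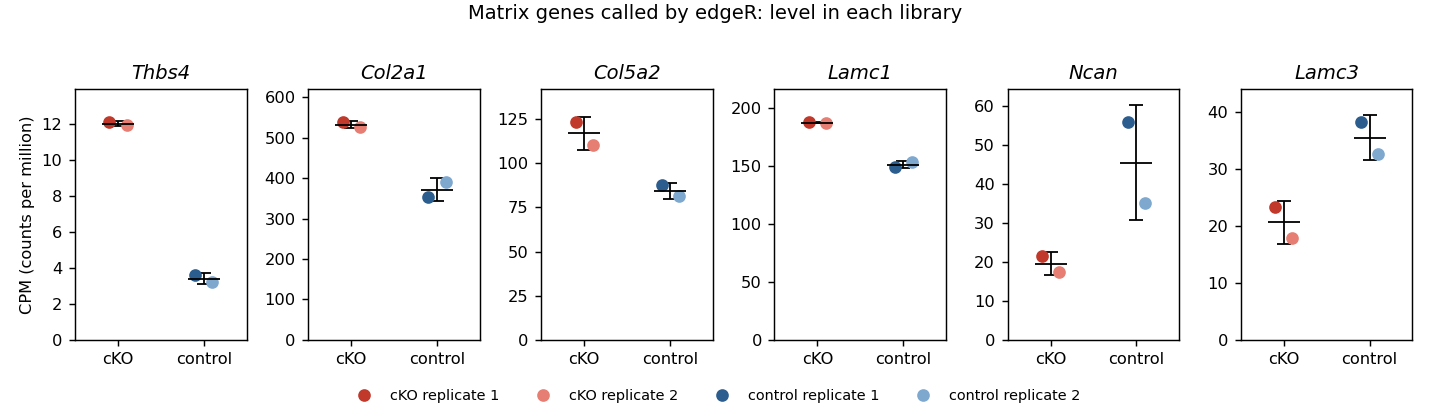
Level in CPM (vertical axes, each from 0) of the 6 matrix genes called by edgeR, with cKO and control libraries as points and the mean and SD of each group (2 libraries) as bars. Thbs4, Col2a1, Col5a2 and Lamc1 are higher in both cKO libraries, and Ncan and Lamc3 are lower.

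Genes that act on or bind the matrix were read from the same fit. Of 34 tested matrix receptor genes, 2 were higher and 1 lower (8.82% called, against 3.7% of all genes tested), with a median log2 fold change of −0.02. DESeq2 called 1 higher and 2 lower (Itga6, and Gpc1 and Itgb8), and limma-voom called 1 higher, Itga6. Itga6, the integrin alpha6 chain of laminin receptors, was at 193 and 218 CPM in cKO libraries, against 154 and 155 CPM in control libraries (0.43, SE 0.07, edgeR adjusted p = 0.020, and 0.073 on leaving out cKO replicate 2). Cd44, the hyaluronan receptor, was at 10.2 and 10.7 CPM in cKO libraries and 6.08 and 5.91 CPM in control libraries (0.81, SE 0.17, edgeR adjusted p = 0.046), and Gpc1, a cell-surface heparan sulfate proteoglycan, was at 173 and 157 CPM in cKO libraries and 242 and 203 CPM in control libraries (−0.42, SE 0.09, edgeR adjusted p = 0.046). The call of Cd44 was lost on leaving out any library and in DESeq2 and limma-voom, and that of Gpc1 in limma-voom and on leaving out any but control replicate 2.

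Collagen processing enzymes and chaperones had 2 of 30 tested genes higher and 0 lower, with a median of 0.13. The 2 calls were 6.67% of the list, against 3.7% of all genes tested. An unadjusted p under 0.05 was reached by 10 (33.3%, against 17.5% of all genes tested; 9 higher, 1 lower), and DESeq2 called 4 higher and limma-voom 2 higher, with 0 lower in each. Adamts3, a protease that trims the N-terminal propeptide of fibrillar procollagens, was at 64.8 and 68.3 CPM in cKO libraries, against 39.4 and 33.3 CPM in control libraries (0.89, SE 0.09, edgeR adjusted p = 0.0045). Tll2, a tolloid-like protease of the family that trims the C-terminal propeptide, was at 9.83 and 9.18 CPM in cKO libraries and 3.07 and 4.73 CPM in control libraries (1.30, SE 0.24, edgeR adjusted p = 0.034). Leaving out control replicate 1 (adjusted p = 0.088) or any cKO library (0.10 and 0.12) ended the call of Tll2.

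Of 26 tested matrix proteases and their inhibitors, 2 were lower and 0 higher (median −0.03), a called share of 7.69% against 3.7% of all genes tested. Of these genes 8 had an unadjusted p under 0.05 (6 lower, 2 higher; 30.8%, against 17.5% of all genes tested). DESeq2 called 1 lower and 1 higher, and limma-voom 2 lower. Adamts20, a protease that cleaves versican, was at 14.1 and 11.8 CPM in cKO libraries, against 41.7 and 29.8 CPM in control libraries (−1.46, SE 0.18, edgeR adjusted p = 0.0078). Mmp15, a membrane-type matrix metalloproteinase, was at 48.7 and 45.9 CPM in cKO libraries and 58.9 and 64.0 CPM in control libraries (−0.37, SE 0.07, edgeR adjusted p = 0.043), a call lost on leaving out any library. Among 46 other tested glycoproteins and proteoglycans of the matrix, 1 was higher and 1 lower (median −0.02), or 4.35% called, close to the 3.7% of all genes tested. DESeq2 called 2 higher and 2 lower, and limma-voom 1 higher and 0 lower. In edgeR 14 genes had an unadjusted p under 0.05 (7 higher, 7 lower), or 30.4% against 17.5% of all genes tested. The increase was Spock1, a secreted proteoglycan (1.46, SE 0.27, edgeR adjusted p = 0.033), and the decrease Ntn4, a netrin that binds laminin (−1.02, SE 0.21, edgeR adjusted p = 0.045). Leaving out any library ended the call of Spock1, and leaving out any but control replicate 2, or testing with limma-voom, ended that of Ntn4.

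Markers of cell types in the dissected tissue were read from the same fit. Of 12 neuroepithelial markers 10 had an unadjusted p under 0.05 (83.3%, against 17.5% of all genes tested). Of these, 9 were lower and 1 higher (Hes1, 0.30, at 60.2 and 53.3 CPM in cKO libraries and 46.6 and 46.3 CPM in control libraries). After adjustment 5 were lower and 0 higher (41.7% called, against 3.7% of all genes tested; 7 lower by DESeq2, 5 by limma-voom), among them Pax6 (log2 fold change −1.03), Sox3 (−0.97) and Prom1 (−0.27, called on leaving out control replicate 2 and on leaving out no other library). Sox1, the gene for which the Cre is named, was also among the 5 (−0.29, edgeR adjusted p = 0.031). It was at 139 and 146 CPM in cKO libraries and 178 and 173 CPM in control libraries. For Sox1 too, an effect of the Cre allele cannot be told apart from loss of Chd7. The summed level of the 12 markers was 3478 and 3634 CPM in cKO libraries and 4465 and 4025 CPM in control libraries. Of 18 endothelial markers 0 were called by edgeR, DESeq2 or limma-voom and 8 had an unadjusted p under 0.05 (44.4%, against 17.5% of all genes tested), of which 7 were lower, led by Cdh5 (−0.34) and Sox17 (−1.001), and 1 higher (Flt1, 0.28, at 32.3 and 39.0 CPM in cKO libraries and 28.6 and 30.6 CPM in control libraries). The endothelial list had sums of 389 and 388 CPM in cKO libraries and 451 and 439 CPM in control libraries. Of 10 pericyte and mural markers 1 was lower (Notch3, −0.26, not called on leaving out any library), or 10% against 3.7% of all genes tested, and DESeq2 and limma-voom each called 2 lower, Notch3 and Tbx18 (−0.74, edgeR adjusted p = 0.056). The pericyte list had sums of 309 and 285 CPM in cKO libraries and 354 and 371 CPM in control libraries. Of 9 tested erythroid markers 7 were lower (77.8%, against 3.7% of all genes tested), led by Hbb-y (−0.70), Hba-x (−0.65), Hbb-bh1 (−0.67) and Slc4a1 (−0.69). Their sums were 1899 and 1791 CPM in cKO libraries and 2868 and 3091 CPM in control libraries. The adult globin genes Hba-a1, Hba-a2, Hbb-bt and Hbb-bs were listed at 0 in every library. Whether these 4 genes were silent or their reads were not counted was not tested. Of the surface ectoderm markers Epcam (1.11) and Grhl3 (0.96) had the smallest p, with edgeR adjusted p = 0.052 and 0.34. Alx4, Flt1, Hes1, Itgb8, Lum, Sox1, Tbx18 and Tfap2c were chosen for mention after their values were seen. The part of these cell types in the matrix values was not tested.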

How the data were processed

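RNA sequencing libraries of E10.5 forebrain form 2 groups, set by the labelled genotype (2 cKO, 2 control). Raw counts per gene were deposited by the authors, made from paired-end reads over exons by featureCounts 2.0.1 with no strand option and RefSeq genes of mm10 (GRCm38), per the file headers. HISAT2 and DESeq2 are named in the submitters' processing notes; no version of either is given in the sources used here. The authors' deposited comparison table holds normalized counts (a signal: the count divided by 1 constant per library, 0.990 to 1.013), log2 fold changes, p-values and a Wald score, and was used only where named. No column (0) of per-sample values was left without a sample.

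From the counts, filterByExpr (minimum count 10) left 14235 genes, scaled by TMM and tested in edgeR 4.0.16 (glmQLFit, glmQLFTest; R 4.3.3) with no covariate and Benjamini-Hochberg adjustment. SE is the log2 fold change over the root of F. The common biological coefficient of variation was 0.0785. CPM is the count per 1000000 library counts; CPM per kb divides it by exon length in the GENCODE M21 basic set. Exons of 16 members overlap another gene, 14 of them on the opposite strand. Replicates were checked as distinct libraries (chi-square per degree of freedom 4.07 in the cKO pair, 4.78 in the control pair). On simulated counts for this comparison (14079 genes, 200 changed) the test recovered 67.2% of 1.5-fold, 95.5% of 2-fold and 100% of 4-fold changes, with 11 false calls among 186. The changed genes were drawn from those at a mean of 5 CPM or more. Each gene was given the spread fitted to its expression level, not its own spread. The recovery therefore does not describe members below 5 CPM or members with a wider spread.

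The members, lists and alternatives were chosen with earlier results of these data known. Full values are given for members called and for the most abundant of each role, and, of each other list, for up to 4 called genes or the 2 with the smallest p. The alternatives tried were scaling by DESeq2's or by upper-quartile factors, omitting the count filter or asking for 5 CPM on average, testing with DESeq2 1.42.0 or limma-voom (limma 3.58.1), blocking on the replicate number, and leaving out each library. Plots used matplotlib 3.10.9. The values of 2 genes, 1 of them a member, are not reported here; both remain in the counts, medians and list sums.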

Additional observations from a re-analysis of the deposited data

How the results depend on the processing

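Col2a1 and Thbs4 were called in all 11 alternatives, and 39 members were called in no fit. Over all genes, the counts higher and lower with a library left out ranged from 80 to 351 and from 131 to 418. The 4 members higher ranged from 2 to 7 with a library left out, and the 2 lower from 0 to 7; the member median ranged from −0.17 (without cKO replicate 1) to 0.078 (without cKO replicate 2). The 7 lower members without cKO replicate 1 were Col3a1, Col1a2, Col1a1, Ncan, Lamc3, Col15a1 and Col9a1. In these fits a library left without its replicate is taken to vary like the other group's pair. The DESeq2 test called 7 members higher, adding Col18a1, Lama5 and Tnc. For Lama5 and Tnc it gave the same adjusted p as the authors' deposited comparison, so these are not separate results. The limma-voom test called 1 lower, losing Ncan (adjusted p = 0.051). The cause was not tested. With the replicate number as a block, 137 genes were higher, against 223 without it, and 211 lower, and the members called were 5 higher and 2 lower. Same-numbered libraries had deviations with a correlation of −0.0531 across genes. The labels name no batch, and a correlation over all genes cannot exclude a batch that affects some of them. Mmp15, Cd44, Spock1, Tll2, Notch3 and Prom1 also lost their calls under the block.

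The log2 fold changes of 21 members not called in the main comparison changed sign when 1 library was left out; Col1a2 was called in the fit without cKO replicate 1 (−0.47). Their lowest and highest values with a library left out were Col4a1 (−0.21 to 0.068), Col4a2 (−0.23 to 0.078), Vcan (−0.17 to 0.27), Fbn2 (−0.17 to 0.11), Col1a2 (−0.47 to 0.15), Nid1 (−0.31 to 0.0596), Lama1 (−0.0198 to 0.065), Col5a1 (−0.016 to 0.0597), Col26a1 (−0.44 to 0.19), Col12a1 (−0.13 to 0.77) and Col23a1 (−0.24 to 0.43). The others were Col27a1 (−0.19 to 0.074), Col6a2 (−0.74 to 0.045), Col22a1 (−0.13 to 0.19), Col6a1 (−0.32 to 0.31), Col11a2 (−0.031 to 0.63), Col6a3 (−0.67 to 0.32), Col16a1 (−0.35 to 0.24), Col13a1 (−0.0905 to 0.52), Thbs2 (−0.64 to 0.15) and Col5a3 (−0.18 to 0.077). The cause was not tested.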

Other observations

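The matrix genes below 1 CPM included chains of epithelial and kidney-type basement membranes, given here as counts with no test. Lama3 and Lamb3, laminin chain genes of skin, had 2 and 2 counts and 4 and 4 counts in cKO libraries, against 0 and 0 counts and 17 and 5 counts in control libraries. Col17a1, the transmembrane collagen of skin anchoring junctions, had 4 and 5 counts in cKO libraries and 2 and 10 counts in control libraries. The genes of the alpha3 and alpha4 chains of type IV collagen were also low. Col4a3 had 14 and 1 counts in cKO libraries and 1 and 7 counts in control libraries, and Col4a4 had 18 and 9 counts in cKO libraries and 9 and 12 counts in control libraries. Col10a1, the collagen of hypertrophic cartilage, had 0 and 0 counts in cKO libraries and 0 and 1 counts in control libraries.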
